A study of Mus musculus with 10 samples.

Results

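The 4 livers described here came from mice that received carbon tetrachloride (CCl4) without metformin, and they are 4 of the 10 livers in the series. CCl4 is a solvent that hepatocytes turn into a reactive radical, and repeated doses cause necrosis, regeneration and fibrosis of the liver. All mice were male, carried the miR-221 transgene of the TG221 strain on a B6D2F2 background, were 4 to 6 weeks old at the start, and were gavaged with CCl4 (20% by volume, olive oil as the carrier) 3 times a week over 14 weeks. The liver was taken at 24 weeks and frozen. In the other 6 mice of the series, oral metformin (300 mg/kg each day) was added once CCl4 had been given for 3 weeks. They serve here only as other animals in which the spread of the same genes was measured. The labels give the tissue as liver, the cell type as hepatocellular carcinoma and the background as cirrhosis. They do not say whether a piece held tumour, and give neither the promoter of the transgene nor the hour of day at harvest. No mice without CCl4 are among the samples used here. B6D2F2 mice descend from a cross of C57BL/6 and DBA/2, so each animal of an F2 generation carries its own mix of the founders' alleles. The mature strand that gives the strain its name is shown with its seed (bases 2 to 8) in capitals, from RefSeq (GRCm38.p6, chrX:19146307-19146329, minus strand):

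mmu-miR-221-3p: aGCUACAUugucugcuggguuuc

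The array measures transcripts in 1 Cy3-labelled RNA sample per mouse, and no probe on it matched this miRNA by name. Of 21613 named genes on the array, 13743 (63.6%) were well above background in all 4 livers, and these are the genes described. Another 6311 genes were well above background in none of the 4, and 674, 400 and 485 in 1, 2 and 3 of them. Values are log2 processed intensities minus the 75th percentile of the same array, so that 0 is the array's 75th percentile and a step of 1 is a doubling. A gene is represented by its brightest probe. The spread of a gene is the SD of this value over the 4 mice. With 4 mice an SD is known only loosely: its 95% interval runs from 0.566 to 3.73 times the estimate if values are normally distributed. The 75th percentile was an intensity of 310, 238, 289 and 338 in mice 1 to 4, no spot was saturated, and any pair of arrays correlated across genes at r = 0.984 to 0.993 (genes are not independent replicates). The 4 arrays lie side by side on 1 slide, 1 mouse each, so array position and mouse cannot be told apart.

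Bright local patches were seen on the arrays of mouse 4 (167 spots) and mouse 1 (35 spots), and on neither of the other two. A spot was counted to a patch where it and at least 3 of its 8 neighbours stood more than 2 log2 units above the median of the other arrays. Of the 13743 genes 6 lie in such patches, and 3 of them, Paxip1, Alox12b and Tspan18, are among those of large spread described below. Paxip1, which encodes a DNA damage response protein, read -2.20, -2.82, -3.03 and 9.76 in mice 1 to 4, and 7 of the 8 spots around it in mouse 4 were raised too. Alox12b, an epidermal lipoxygenase, read 2.80, -3.27, -3.63 and -3.74, with 4 raised neighbours in mouse 1, and its other probe had an SD of 0.35. Paxip1 had an SD of 0.23 among the 6 metformin mice. The number of genes of large spread and the numbers with mouse 4 or mouse 1 apart are given with and without these 3 genes.

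The livers were alike for most genes. The median SD over all 13743 genes was 0.19, a spread of 1.14-fold, and 90% of the genes had an SD under 0.45. On the 261 probes printed in 10 copies, the SD of the copies on an array was 0.064 in the median and the SD of the same probes between mice was 0.187. Taken probe by probe, the median ratio of the spread between mice to that of repeated spots was 2.55, and the former was larger for 89.7% of these probes. The SD between mice is that of averages over the copies, and the SD on an array that of single spots. Spread fell with signal: the median SD was 0.29, 0.22, 0.16 and 0.12 from the dimmest to the brightest quartile of genes. An SD of at least 1, which is a 2-fold spread, was reached by 105 genes (0.764% of the 13743), and by 102 without the patches. An SD of at least 0.5 was reached by 1058 genes (7.7%). Just inside the limit of 1 stood Socs1 and Gm10639 (both 1.01), and just outside it Adam2 (0.995) and Depp1 (0.994). These shares describe the choice itself and are the background for the gene groups below.

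**Figure D1:**
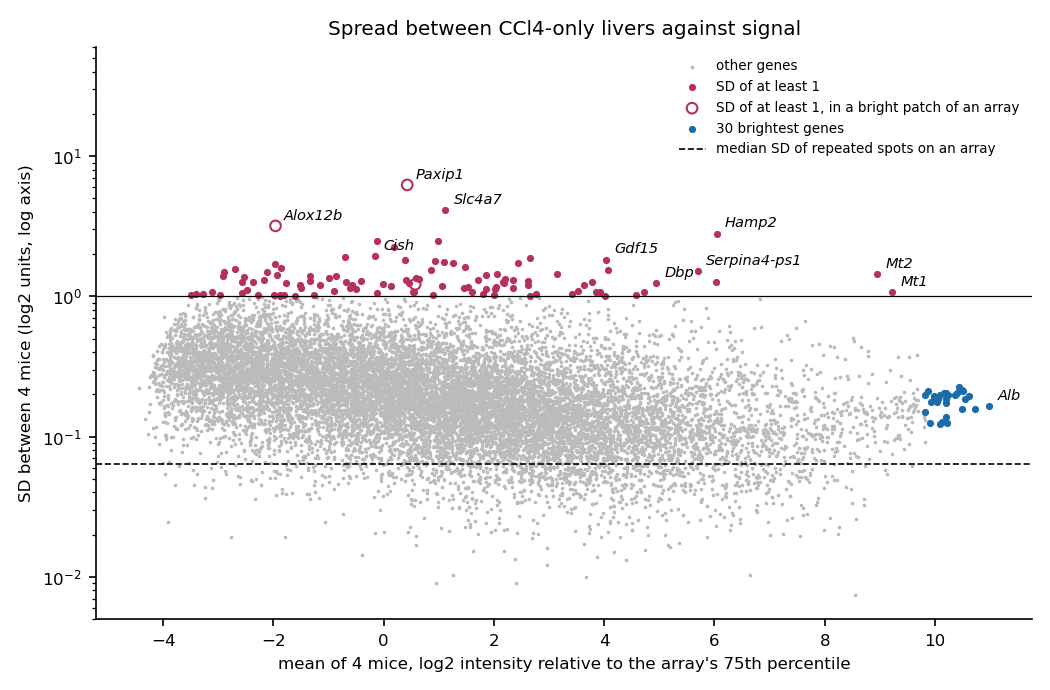
Spread between the 4 CCl4-only livers against mean signal. The horizontal axis is the mean log2 intensity relative to the array's 75th percentile, the vertical axis (logarithmic) is the SD over 4 mice, and each point is 1 gene. Red points are genes with an SD of at least 1 (open: in a bright patch), blue points are the 30 brightest genes, and the dashed line is the median SD of repeated spots, 0.064; the 30 brightest genes lie between 0.12 and 0.22, while the metallothionein genes Mt1 and Mt2 reach 1.07 and 1.43 at nearly the same signal.

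The brightest transcripts were those of proteins that hepatocytes secrete into blood and urine. Intensity depends on how well a probe binds as well as on the amount of RNA, so the order of the genes is that of their probes. Albumin (Alb), the main plasma protein, read 10.82, 11.17, 11.09 and 10.88 in mice 1 to 4. The major urinary proteins, small pheromone carriers made by male liver, gave 7 of the 30 brightest genes (Mup19, Mup1, Mup2, Mup4, Mup20, Mup18 and Mup5), with Mup19 at 10.59, 10.91, 10.80 and 10.60. The alpha-1-antitrypsin family, inhibitors of serine proteases, gave 5 (Serpina1a, Serpina1c, Serpina1d, Serpina1e and Serpina3k, the last a close relative). Apoa2 and Apoe, which coat lipoproteins, the fibrinogen chain Fgb, complement C3, transferrin (Trf), Ahsg, Ambp, Mug1, the bile acid importer Slc10a1 and the betaine enzyme Bhmt were also among them. The Mup and Serpina1 copies are so alike in sequence that probes may read several of them. The SD of the 30 ran from 0.12 to 0.22. Of the 30, 26 were highest in mouse 2, Alb among them, and after quantile normalization the SD of Alb, Mup19 and Apoa2 was 0.

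Some of the 30 are less certain. Kctd14, Glrx2, Exosc2, Elk1, Ttc38, Milr1 and Sp110 are not known as hepatocyte secretory genes. Glrx2, Elk1, Ttc38, Milr1 and Sp110, and also Slc10a1 and Mup4, each have a dimmer probe: that of Elk1 read -3.26 in mouse 1 against 9.99 for the brightest, and that of Milr1, the closest, 7.58 against 9.91. Whether the bright probe reads another transcript was not tested. With the mean of all probes of a gene in place of the brightest, 22 of the 30 stayed in the list. Another 4 of the brightest 30 features on the array have no gene name in the table used.

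Hepatocyte markers were steady across the 4 mice. In bulk tissue fewer cells of a type and less RNA per cell cannot be told apart. All 29 listed genes of hepatocytes and plasma proteins on the array were above background, none had an SD of at least 0.5, and their median SD was 0.15. The widest spread among them was that of Tat, the tyrosine aminotransferase, at 9.39, 9.65, 9.50 and 9.01. The 68 ribosomal protein genes and the 63 genes of oxidative phosphorylation each had a median SD of 0.06, with none at 0.5 or more. The 35 listed proliferation genes had a median SD of 0.17 and none at 0.5 or more. Of the genes in the upper part of the signal range, the steadiest was Atp5b, a subunit of the mitochondrial ATP synthase, at 8.55, 8.55, 8.55 and 8.56. Adsl, Tm4sf1, Lamp3, Mettl23, Pgm1, Mapk9, St6galnac6, Hectd4 and Timm44 followed, with SDs of 0.0091 to 0.014. SDs this far below the 0.064 of repeated spots are the low end of many estimates from 4 values.

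Genes raised in fetal liver and liver cancer were mostly dim. Of the 38 on the array, 31 were above background in all 4 livers, and Igf2, Igf2bp1, Igf2bp3, Epcam, Vil1, Peg3 and Bex4 were not. Alpha-fetoprotein (Afp), the fetal counterpart of albumin, read -1.51, -0.42, -1.77 and -0.96, below the 75th percentile in every liver. Of the 31, 10 had an SD of at least 0.5 and only Slpi reached 1. Slpi, a secreted protease inhibitor, read 3.83, 1.17, 2.50 and 1.19, highest in mouse 1.

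Hamp2 had the widest spread of the genes outside the patches once Slc4a7, whose probes disagree, is set aside; it has 1 kept probe itself. It encodes a close relative of hepcidin, the liver hormone that closes the iron exporter ferroportin. Hamp2 read 3.55, 8.50, 8.44 and 3.67 in mice 1 to 4: mice 2 and 3 were alike and high, mice 1 and 4 alike and low, and the extremes lay 30.7-fold apart. None of the 8 spots around it was raised in mouse 2 or 3. Hepcidin itself, Hamp, read 8.81, 8.70, 8.42 and 8.73, with an SD of 0.17. Of the 18 iron genes on the list only Hamp2 reached an SD of 1 and 3 reached 0.5, against a median of 0.20. The other such genes were Id1, a target of BMP signalling (0.36, -0.72, -0.42 and -1.53), and the transferrin receptor Tfrc (1.84, 1.21, 0.96 and 0.52), both highest in mouse 1 and lowest in mouse 4. The 3 profiles nearest to Hamp2 (B930025P03Rik, Cfd and Zfp979) still differed from it by 1.70 to 1.72 log2 units, the root mean square over the 4 mice after centring each gene. Among the 6 metformin mice the SD of Hamp2 was 0.60 and that of Hamp 0.43.

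The stretches before the start of the Hamp gene pair are shown because they are nearly the same while the spread of the genes was not. They are the 250 bases before the RefSeq start (GRCm38.p6, both on the minus strand; Hamp at chr7:30944030-30944279, Hamp2 at chr7:30924182-30924431), with matches to TTCNNNGAA, a STAT factor motif, in capitals.

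Hamp: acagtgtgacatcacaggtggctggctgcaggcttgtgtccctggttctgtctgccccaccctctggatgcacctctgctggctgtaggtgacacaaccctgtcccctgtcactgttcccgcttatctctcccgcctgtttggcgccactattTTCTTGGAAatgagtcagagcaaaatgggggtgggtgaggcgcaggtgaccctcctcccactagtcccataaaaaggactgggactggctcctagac

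Hamp2: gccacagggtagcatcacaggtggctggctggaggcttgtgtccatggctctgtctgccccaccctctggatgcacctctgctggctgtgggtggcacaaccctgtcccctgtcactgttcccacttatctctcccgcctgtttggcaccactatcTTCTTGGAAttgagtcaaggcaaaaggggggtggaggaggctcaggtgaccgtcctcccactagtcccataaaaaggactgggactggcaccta

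Set against each other with a shift of 3 bases and no gaps, 227 of 247 bases (91.9%) were the same. Each holds the motif once, 97 bases before the start in Hamp and 94 in Hamp2, and 8.30% of all 32841 RefSeq windows of 300 bases hold it at least once. The motif reads the same on both strands.

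**Figure D2:**
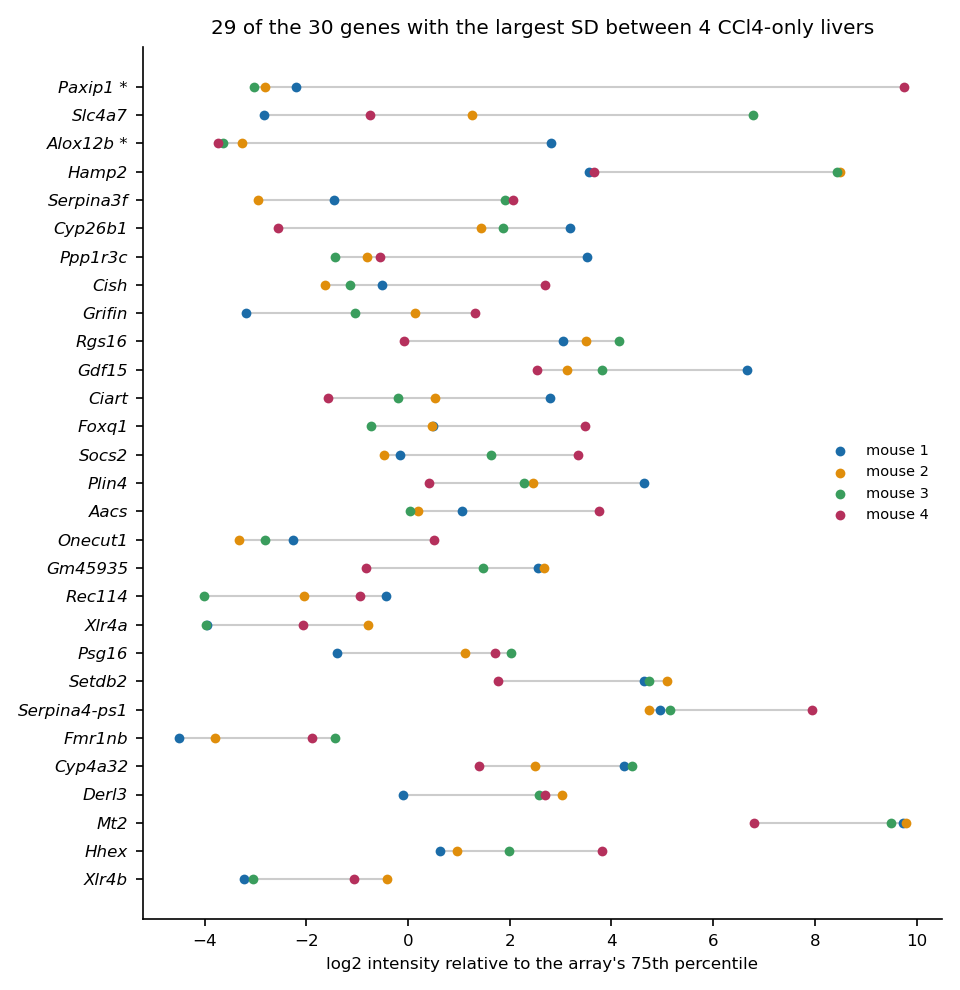
Values of 29 of the 30 genes with the largest SD in each CCl4-only liver. Each row is a gene, each coloured point a mouse, and the horizontal axis is the log2 intensity relative to the array's 75th percentile; asterisks mark genes in a bright patch. Hamp2 shows 2 mice near 8.5 and 2 near 3.6, and many of the other genes show mouse 4 (red) or mouse 1 (blue) apart from the rest.

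Slc4a7, a sodium bicarbonate cotransporter, read -2.83, 1.25, 6.79 and -0.75 on its brightest probe, with no raised neighbour in mouse 3. The other probe of the gene read 0.17, 0.43, 0.55 and 0.31, an SD of 0.17. The probes of Slc4a7 thus disagree about its spread, and which of them reads the gene was not tested. Serpina3f, a protease inhibitor of the Serpina3 cluster, read -1.46, -2.96, 1.91 and 2.06, and here too the other probe had an SD of only 0.60 and put mouse 1 highest.

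Mouse 4 stood apart in 51 of the 105 genes (48.6%), and in 50 of 102 (49.0%) without the patches, against 25.5% of all 13743 genes. For each gene the 4 ordered values were split at their widest gap. Of the 14 possible splits, mouse 4 low held 28 genes and mouse 4 high 23. Mouse 1 stood apart in 25 genes (23.8%, against 19.1% of all genes), 16 of them with mouse 1 high. Without the patches mouse 1 stood apart in 23 genes (22.5%). Mouse 3 stood apart in 13 (12.4%, against 18.7%) and mouse 2 in 5 (4.76%, against 11.6%). At an SD of at least 0.5, mouse 4 stood apart in 39.6%. Over all 13743 genes, the highest value was that of mouse 1, 2, 3 and 4 in 20.9%, 22.1%, 26.9% and 30.1%, and the lowest in 32.4%, 16.5%, 23.7% and 27.4%; these shares are the background for the counts by mouse in each gene list below. The split came out the same under median, quantile and spike-in scaling and normexp background correction for 102, 103, 97 and 95 of the 105 genes.

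**Figure D3:**
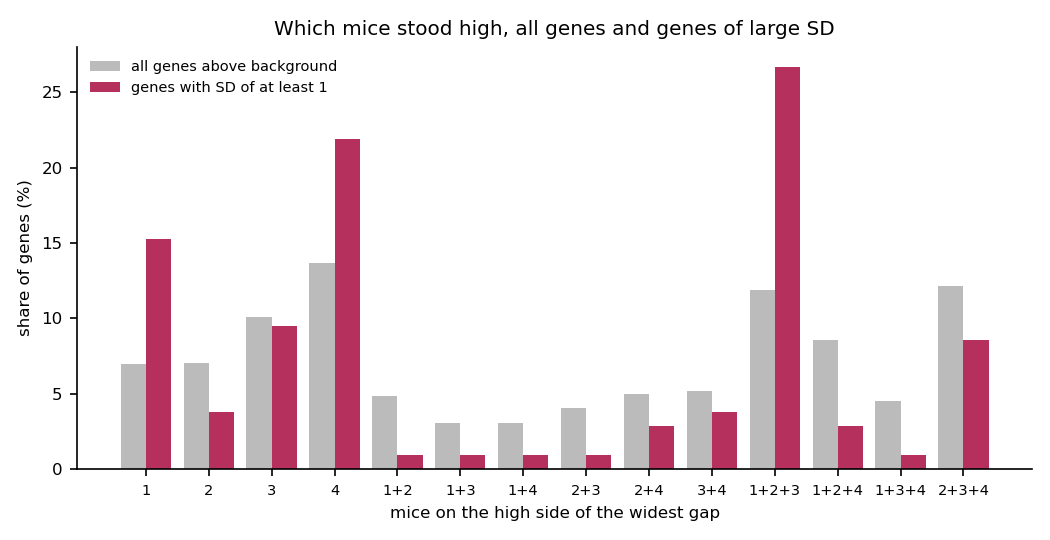
Which mice stood on the high side of the widest gap, as a share of genes. Grey bars are all 13743 genes and red bars the 105 genes with an SD of at least 1, for the 14 possible splits of 4 mice. Mouse 4 alone high (21.9%) and mice 1, 2 and 3 high, which leaves mouse 4 alone low (26.7%), are the tallest red bars.

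Other probes and other animals gave 2 separate readings of these genes. Only 11 of the 105 genes have another kept probe, and in 8 of them (72.7%) it split the mice the same way. The share was 1016 of 3440 genes (29.5%) overall and 83 of 162 (51.2%) at an SD of at least 0.5. The other probe itself reached an SD of 1 in 4 of the 11. In the 6 metformin mice, which played no part in choosing the genes, 97 of the 105 were above background on all arrays. Their median SD there was 0.70 against 0.19 for all genes, and 71 of the 97 (73.2%) lay among the 1324 most variable of all 13231 genes measured there, those with an SD of at least 0.44. An SD of at least 1 was reached there by 19 of the 97 and by 75 of the 13231. Cyp4a14 (2.0), Gdf15 (1.80) and Mpo (1.80) were among the most variable in that group too, while Inhba, a subunit of activin, had an SD of 1.34 in the CCl4-only mice and 0.17 in the other group.

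**Figure D4:**
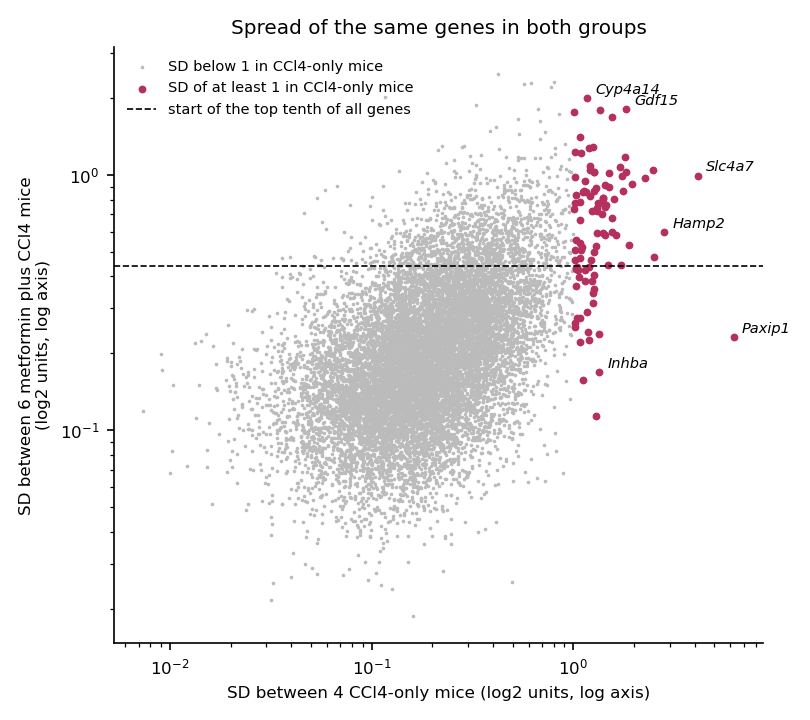
SD of each gene between the 4 CCl4-only mice (horizontal) and between the 6 metformin plus CCl4 mice (vertical), both axes logarithmic. Red points are the genes with an SD of at least 1 in the CCl4-only mice, and the dashed line at 0.44 cuts off the 1324 most variable genes of the metformin mice. Of the 97 red points, 71 lie above the line, and Paxip1, the largest in the CCl4-only mice, lies below it.

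Metallothioneins were low in mouse 4. These small cysteine-rich proteins bind zinc and copper, and their genes are switched on by metals, glucocorticoids and cytokines. Mt1 read 9.82, 9.84, 9.62 and 7.63, and Mt2 9.73, 9.79, 9.49 and 6.81. Mice 1 to 3 lay within a narrow range and mouse 4 far below it, with extremes 4.65-fold apart for Mt1 and 7.87-fold for Mt2. The profiles of the pair differed by 0.31 log2 units (root mean square of the centred values). Both are on the list of 23 acute phase genes, whose median SD was 0.20 and of which 6 reached 0.5. The others were Orm3 (2.11, 0.46, 1.20 and 0.22), Lcn2 (3.38, 1.93, 2.55 and 2.03), Saa1 (6.53, 6.99, 5.89 and 5.64) and Saa2 (6.42, 6.69, 5.73 and 5.49). Haptoglobin (Hp), hemopexin (Hpx) and Crp had SDs of 0.18, 0.15 and 0.19. In the metformin mice the serum amyloid genes had far wider spreads, with an SD of 2.28 for Saa1.

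The 250 bases before the start of the metallothionein genes are given with matches to TGCNCNC in capitals on either strand (GRCm38.p6, plus strand; Mt1 at chr8:94178839-94179088, Mt2 at chr8:94172368-94172617). This is a looser form of the metal response core TGCRCNC, where R is A or G. Some matches, such as TGCTCTC in Mt2, fall outside that core.

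Mt1: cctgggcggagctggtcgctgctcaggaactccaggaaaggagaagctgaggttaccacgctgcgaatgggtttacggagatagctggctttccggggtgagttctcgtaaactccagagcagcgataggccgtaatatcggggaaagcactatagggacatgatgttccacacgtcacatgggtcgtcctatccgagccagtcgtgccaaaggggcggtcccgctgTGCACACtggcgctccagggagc

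Mt2: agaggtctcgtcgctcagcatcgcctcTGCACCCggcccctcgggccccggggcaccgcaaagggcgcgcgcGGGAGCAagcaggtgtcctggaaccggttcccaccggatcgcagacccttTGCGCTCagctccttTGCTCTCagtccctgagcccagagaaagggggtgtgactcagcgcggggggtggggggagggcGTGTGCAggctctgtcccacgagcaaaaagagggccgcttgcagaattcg

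Over the whole window of 300 bases, which runs 50 bases past the start, Mt1 holds 3 matches and Mt2 holds 6. At least 1 match is found in 51.0% of all windows and at least 3 in 7.10%.

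Cish, Socs2 and Socs1, inhibitors that cytokine signals induce, were highest in mouse 4; they were picked for their spread. Cish, which dampens signals through STAT5, read -0.51, -1.64, -1.13 and 2.68. Socs2, which limits growth hormone signalling, read -0.17, -0.47, 1.64 and 3.34, so mouse 3 was raised as well as mouse 4, and another probe gave the same split with an SD of 1.89. Socs1 read -2.33, -2.59, -2.19 and -0.38. Onecut1, a liver transcription factor that growth hormone induces, read -2.27, -3.33, -2.80 and 0.51. Of all genes its profile was the nearest to that of Cish, at a difference of 0.21, so this closeness restates a choice. Cish and Socs2 differed by 0.93. Of 12 growth hormone and STAT5 genes above background, a list made after these values were seen, 4 reached an SD of 1 and 7 were highest in mouse 4 (30.1% of all genes were). The receptor and the hormone output were level: Ghr read 6.08, 6.13, 6.04 and 6.19, and Igf1, the circulating growth factor, 6.93, 6.74, 6.80 and 6.92. The start of Cish holds the STAT motif in tandem, in capitals here (GRCm38.p6, chr9:107296654-107296683, plus strand):

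Cish: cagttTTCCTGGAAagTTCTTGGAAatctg

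These begin at bases 1 and 12 from the RefSeq start.

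Many immediate early genes were also highest in mouse 4. They respond within minutes to growth factors and stress and include the AP-1 subunits. Of 22 members above background, 3 reached an SD of 1 and 12 an SD of 0.5, with a median of 0.63, and 11 were highest in mouse 4, as 30.1% of all genes were. Myc, a driver of growth, read 0.66, 2.06, 2.35 and 3.70. The AP-1 subunits Junb (-0.55, 0.01, -1.17 and 1.70) and Fosl2 (0.97, 2.04, 1.51 and 3.57) were lower in all other mice. Fos read -2.05, -2.97, -3.08 and -1.04. Foxq1, a forkhead factor, read 0.48, 0.47, -0.72 and 3.48, and Aacs, which makes acetoacetyl-CoA for lipid synthesis, 1.06, 0.20, 0.04 and 3.76.

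Clock genes were often lowest in mouse 4 and highest in mouse 1. The circadian clock drives daily rhythms of many liver transcripts, and its output genes peak and trough at set hours. Of 23 clock genes and outputs, 5 reached an SD of 1 and 10 an SD of 0.5, with a median of 0.42, 13 were highest in mouse 1 (20.9% of all genes) and 14 lowest in mouse 4 (27.4%). Dbp, a transcription factor with a steep daily rhythm, read 6.03, 5.42, 5.15 and 3.14. Per2, a repressor of the clock, went the other way at 0.27, -0.25, -0.70 and 2.28. Ciart, another repressor, read 2.79, 0.52, -0.19 and -1.58, with mouse 1 highest and mouse 4 lowest. Usp2, a rhythmic deubiquitinase, read 3.13, 2.42, 1.15 and 0.70, and Noct, a phosphatase of NADP(H), 4.95, 3.11, 2.80 and 2.76. In the metformin mice the SD was 0.31 for Dbp, 0.59 for Per2, 1.03 for Ciart, 0.87 for Usp2 and 0.44 for Noct. The median of all genes there was 0.19. The hour of harvest is not given for each mouse, and its part in these values was not tested.

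The upstream stretch of Ciart carries the E-box CACGTG, which the clock activators bind, in capitals (GRCm38.p6, chr3:95882229-95882478, minus strand).

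Ciart: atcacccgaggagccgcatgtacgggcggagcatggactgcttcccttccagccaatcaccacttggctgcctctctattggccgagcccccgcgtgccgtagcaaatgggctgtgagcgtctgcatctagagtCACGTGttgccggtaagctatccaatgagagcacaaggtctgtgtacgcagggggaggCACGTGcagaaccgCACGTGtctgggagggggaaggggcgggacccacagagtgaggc

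It holds the E-box 3 times, which 29 of 32841 windows (0.0883%) do at least; 7.15% hold it at least once. The E-box reads the same on both strands.

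Several genes of fasting and fat oxidation were lowest in mouse 4. Of 26 fasting and feeding genes, 4 reached an SD of 1 and 12 an SD of 0.5, with a median of 0.46, and 14 were lowest in mouse 4, against 27.4% of all genes. The fatty acid omega-hydroxylase Cyp4a10, a target of PPAR alpha, read 4.73, 3.49, 4.78 and 2.10, and Cyp4a31 read 4.45, 3.30, 4.69 and 2.07. A further paralog, Cyp4a32, read 4.25, 2.49, 4.41 and 1.40. Cyp4a10 and Cyp4a31 differed by 0.096, and the probes may read each other's transcripts. Cyp4a14 read 3.11, 2.37, 2.27 and 0.37 and differed from Cyp4a10 by 0.50. Pdk4, which spares glucose, read 2.95, 2.15, 4.09 and 1.26, and Angptl4, a lipase inhibitor, 7.56, 6.79, 7.44 and 5.49. Plin4, a lipid droplet coat protein, read 4.64, 2.46, 2.28 and 0.40. Of all genes its profile was the nearest to that of Ciart, at a difference of 0.24. Of 22 fatty acid synthesis genes, 10 were highest in mouse 4 and 9 in mouse 1 (30.1% and 20.9% of all genes), with Fasn, the fatty acid synthase, at 2.16, 1.03, 0.82 and 1.90.

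Retinoid-clearing enzymes were low in mouse 4. Cyp26b1, which breaks down retinoic acid, read 3.19, 1.43, 1.87 and -2.55, extremes 53.5-fold apart, and the related Cyp26a1 read 3.14, 3.44, 2.86 and 1.18. Rgs16, a regulator of G protein signals, read 3.05, 3.50, 4.15 and -0.08, and the histone methyltransferase Setdb2 4.64, 5.10, 4.74 and 1.76. Serpina4-ps1, a transcribed pseudogene, was high in mouse 4 at 4.95, 4.74, 5.16 and 7.94.

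Gdf15 and Ppp1r3c were highest in mouse 1. Gdf15, a stress hormone of the TGF-beta family, read 6.66, 3.13, 3.81 and 2.54, a range of 17.4-fold. Ppp1r3c, which targets a phosphatase to glycogen, read 3.53, -0.80, -1.44 and -0.55. Cdkn1a, the p53-induced cell cycle inhibitor, read 4.98, 4.48, 3.73 and 2.49, lowest in mouse 4. Of 19 p53 target genes, 2 reached an SD of 1 and 5 reached 0.5. Derl3, a protein of endoplasmic reticulum quality control, was low in mouse 1 alone: Derl3 read -0.09, 3.02, 2.57 and 2.70.

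Of 21 neutrophil markers above background, 15 were highest in mouse 1 and 11 lowest in mouse 4, against 20.9% and 27.4% of all genes. Their mean relative to the mean of all genes was -0.27, -0.86, -0.69 and -1.09. Camp, a granule peptide, read 2.03, 0.88, 1.80 and 0.48, and Ngp 0.20, -1.20, -0.78 and -1.46. Mpo, the myeloperoxidase of granules, was not highest in mouse 1: it read -0.46, -0.00023, -0.52 and -2.98, highest in mouse 2. Elane, the neutrophil elastase, was also highest in mouse 2, at 0.92, 1.01, 0.74 and 0.40. Stfa1, Stfa2l1, Stfa3 and Cd177 were not above background in all 4. How far these cells account for the genes high in mouse 1 was not tested.

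Mouse 3 was high for matrix and detoxification genes, at modest sizes. Of 35 matrix genes, 26 were highest in mouse 3 (26.9% of all genes were), none reached an SD of 1 and 5 reached 0.5. Col1a1, the main fibrillar collagen of scars, read -0.65, -0.41, 0.88 and 0.61, and Col3a1 0.82, 1.14, 1.99 and 2.03, so mice 3 and 4 lay above mice 1 and 2 for both. Of 22 stellate cell and myofibroblast markers, which mark the cells that lay down this matrix, 14 were highest in mouse 3 (again against 26.9%), and the mean of the list was 0.25, 0.45, 0.65 and 0.43. Pdgfra, a receptor on these cells, read 0.91 in mouse 3 and at most 0.060 in the others. Gfap and Cthrc1 were not above background in all 4. Of 31 glutathione transferase and NRF2 target genes, 15 were highest in mouse 3, against the same 26.9%. Cbr3, a carbonyl reductase, read 0.27, 0.34, 2.43 and 0.56, Gsta2 3.63, 3.64, 5.16 and 3.84, and Gstm3 5.91, 6.01, 7.11 and 6.10. Gm3776 and Gm10639, predicted genes of the same transferase family, were high in mouse 3 as well, and probes of this family may read several members.

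Interferon-stimulated genes leaned to mouse 4 with small spreads. Of 43 such genes, 23 were highest in mouse 4 (30.1% of all genes were), none reached an SD of 1 and 4 reached 0.5, with a median of 0.21. The list level was 0.06, -0.05, -0.08 and 0.25 in mice 1 to 4. Its 2 members of largest SD are interferon-inducible GTPases. Igtp, which defends vacuoles against parasites, read 2.83, 2.62, 2.32 and 4.25, and its neighbour in family Irgm2 1.64, 1.68, 1.65 and 3.32, a pair 0.18 apart. Their promoters share a stretch that holds the STAT motif (GRCm38.p6, plus strand; chr11:58199500-58199529 and chr11:58214891-58214920).

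Igtp: aaactagccatTTCTAGGAActgaaactga

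Irgm2: aaactagccatTTCCAGGAActgaaactga

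It starts 45 bases before the start of Igtp and 75 before that of Irgm2.

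A few dim genes of the X chromosome and the germ line varied in other combinations. Xlr4a read -3.96, -0.79, -3.98 and -2.07, and its paralog Xlr4b -3.23, -0.42, -3.05 and -1.07, both higher in mice 2 and 4. After normexp background correction their SDs were 0.66 and 0.79. Fmr1nb, a testis gene, read -4.50, -3.80, -1.43 and -1.88, with mice 3 and 4 higher. The 7 listed genes known to differ between the founder strains and above background in all 4 livers had a median SD of 0.20 and none reached 0.5. Klrd1 and Gpnmb, also on that list, were well above background in only 1 liver each, so their spread is not in these figures. The widest was Gstm1 (7.79, 8.06, 8.79 and 8.04), which also belongs to the transferase family above.

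Other genes with an SD of at least 1 followed these splits too. High in mouse 4 were Hhex (0.63, 0.97, 1.98 and 3.82), a homeobox factor of liver development, Bmp4 (0.84, 1.25, 1.10 and 3.19), a ligand of the BMP pathway, and the replication factor Mcm10 (3.46, 4.48, 4.46 and 5.93). Low in mouse 4 were Gm45935 (2.56, 2.68, 1.48 and -0.83) and Fkbp5 (4.02, 2.78, 2.76 and 1.49), a chaperone that glucocorticoids induce. High in mouse 1 were G0s2 (5.10, 3.17, 2.57 and 3.26), an inhibitor of fat breakdown, and Nnmt (5.26, 3.96, 3.43 and 2.73), which methylates nicotinamide. Psg16 (-1.41, 1.12, 2.02 and 1.70) and the lens gene Grifin (-3.19, 0.13, -1.04 and 1.31) were low in mouse 1. Rec114 (-0.44, -2.05, -4.02 and -0.94), a gene of meiosis, was low in mouse 3.

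The remaining lists held 0 to 2 genes with an SD of at least 1 each. None of 25 cholesterol synthesis, 24 xenobiotic cytochrome P450, 20 pericentral or 22 periportal genes had an SD of at least 1. The Cyp4a and Cyp26 genes above are not on the xenobiotic list. An SD of 1 was reached by none of 29 macrophage, 25 endothelial, 15 T and NK cell, 8 MHC class II or 21 MHC class I genes. Nor was it reached by any of 14 erythroid, 6 muscle, 15 heat shock, 18 house-keeping, 24 unfolded protein response or 20 male-predominant genes. Single genes reached it among 17 bile duct, 12 B cell, 9 exocrine pancreas and 9 mesothelial genes. It was reached by 2 of 13 female-predominant genes (15.4%) and by 2 of 9 adipocyte genes (22.2%). As shares these equal or pass the fasting (15.4%) and clock (21.7%) lists, and they rest on Cyp4a10 and Cyp4a14 in the female-predominant list and on Plin4 and Cfd in the adipocyte list. At an SD of at least 0.5 the unfolded protein response list held 8 genes, the female-predominant list 7 and the bile duct list 6. The median SD was 0.57 for the female-predominant, 0.54 for the adipocyte and 0.51 for the mesothelial list. Of the adipocyte markers Adipoq, Lep, Retn and Plin1 were not above background in all 4, and among the bile duct markers Epcam and Cldn4 were not.

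Across the 40 gene lists with members, mouse 4 had the highest level for the growth hormone and immediate early lists, among others. For the clock, fasting and neutrophil lists mouse 1 was highest and mouse 4 lowest. A list level is the mean of its members minus the mean of all genes on the same array. The widest ranges were 0.81 log2 units for the neutrophil, 0.75 for the clock and 0.70 for the immediate early list. The growth hormone list had a range of 1.34, but it was put together after the spread of several of its genes was seen, so its place restates that choice. The narrowest were 0.06 for house-keeping genes and 0.07 for ribosomal protein genes. The mouse with the highest level stayed the same for 34 of the 40 lists under quantile normalization and for 34 under normexp. Median and spike-in scaling shift whole arrays and cannot change these levels. The hepatocyte list was highest in mouse 2 as scaled here and with normexp. It was not after quantile normalization, which brings the brightest genes of all arrays to the same values.

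**Figure D5:**
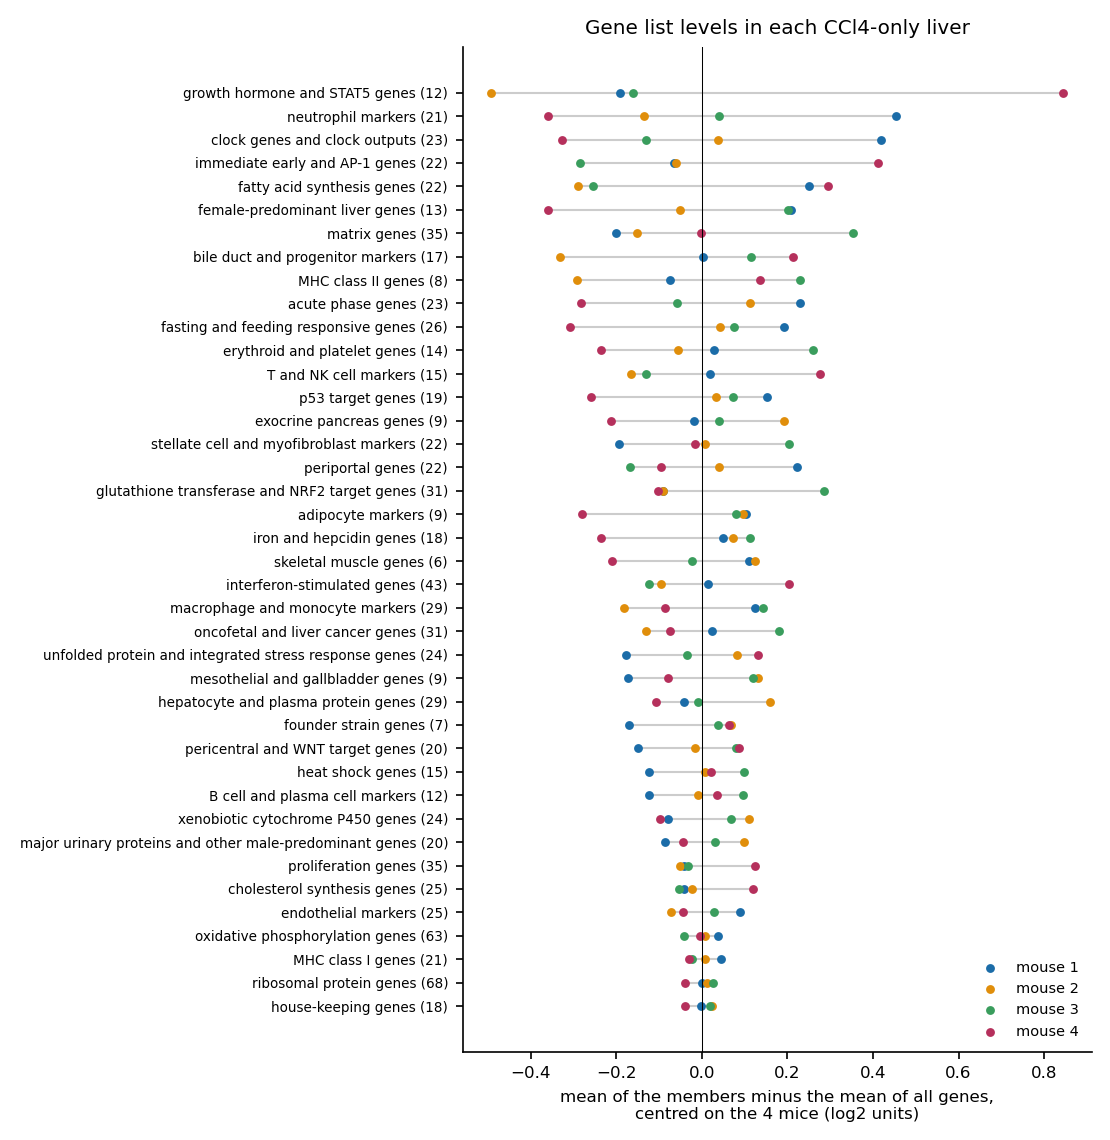
Level of each gene list in each CCl4-only liver. The horizontal axis is the mean of the list's members minus the mean of all genes of the array, centred on the 4 mice, in log2 units; each coloured point is a mouse, and the number of members is in brackets. The growth hormone list, made after the values were seen, has the widest range (1.34), and the ribosomal protein and house-keeping lists the narrowest (0.07 and 0.06).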

How the data were processed

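Liver RNA of 4 mice given CCl4 alone was hybridised to Agilent 1-colour arrays, 1 array per mouse. The authors deposited spot intensities made with Agilent Feature Extraction 10.7.3.1, already background-subtracted and detrended over the slide, per the file headers, and not normalized between arrays. A second file, with log2 values of 4595 probes that the authors quantile-normalized and filtered on FDR and fold change, per the file headers, was used only as an alternative. Control and irregular spots were left out, log2 of the intensity was taken, the array's 75th percentile was subtracted and repeated spots were averaged by probe. A probe was kept if it stood well above background on all 4 arrays, which left 26921, and 17848 of them were named through the GRCm38.p6 RefSeq gene table. The array grid was built on mm9, so no coordinates were carried over. Sequences come from RefSeq tables of GRCm38.p6.

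With 1 group there was no contrast and no test: spreads and counts are descriptions, and the number of arrays limits their precision. Genes were named by rule: the 30 brightest, the 30 of largest SD, up to 8 for each common split of the mice, the nearest profiles, the steadiest 10, and for each of 40 gene lists its most variable and brightest members. Of these lists 1, mitochondrially encoded genes, matched no probe. Other named genes and pairs, and the growth hormone list, were chosen after their values were seen. Of the genes the rule names, 1 is not reported here. The members and all lists were chosen with earlier results of these data known. The finding of splits was tested on simulated data. Tools were python 3.11.15, numpy 2.4.6, pandas 2.3.3, matplotlib 3.10.9 and R 4.3.3 with limma 3.58.1 for normexp (offset 50). Alternatives were other scalings, normexp, the mean of all probes, a looser background filter, irregular spots kept, each mouse left out and, added after seeing the data, the bright patches left out.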

Additional observations from a re-analysis of the deposited data

Results flagged for a closer look

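A mouse was taken as far from the others where the gap between it and its nearest neighbour, divided by the whole range of the 4 mice, exceeded Dixon's 95% critical value for 4 values. Of 135 genes named here or picked by rule 17 passed, of 40 list levels 4, and of all genes 766 (5.57%). Chance alone gives about 1 in 20, and many of the named genes were chosen for their spread.

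The ratio was 0.936 for Paxip1 and 0.928 for Alox12b, both in bright patches of the arrays of mouse 4 and mouse 1. It was 0.861 for Setdb2 and 0.900 for Mt2, both low in mouse 4, and 0.871 for Serpina4-ps1, high in mouse 4. Mt1 (0.900) and Adam2 (0.837) were also low in mouse 4, and Irgm2 (0.979) and Irgm1 (0.865; 2.76, 2.63, 2.65 and 3.61) were high there. High in mouse 3 were Cbr3 (0.865), Gsta2 (0.864), Gstm3 (0.837) and Pdgfra (0.931), and high in mouse 1 was Noct (0.840). Hemopexin, Hpx (0.923; 9.45, 9.75, 9.43 and 9.44), was high in mouse 2. Derl3 (0.855) was low in mouse 1, and the fibrinogen chain Fgb (0.915) was high in mouse 2 at 10.16, 10.40, 10.14 and 10.15. Hpx and Fgb belong to the hepatocyte list, of which 25 of 29 genes were highest in mouse 2 (22.1% of all genes were). The level of that list stayed highest in mouse 2 with normexp. It was not highest there after quantile normalization, which brings the brightest genes of all arrays to the same values and so cannot decide this. Without mouse 4 the SD of Mt2 fell from 1.43 to 0.16, and without mouse 1 that of Derl3 fell from 1.44 to 0.23. Leaving out the mouse that stood apart must lower the SD, so these falls restate the flag.

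Among list levels, the glutathione transferase and NRF2 target genes were high in mouse 3 (0.968; 3.36, 3.36, 3.74 and 3.35). The proliferation genes were high in mouse 4 (0.898; -1.72, -1.73, -1.71 and -1.56). Mouse 4 stayed highest with normexp, but the range of this level fell from 0.17 to 0.07. The level of the adipocyte list was low in mouse 4 (0.935; 1.31, 1.31, 1.29 and 0.93), but its members were divided. Of the 9, 3 were lowest in mouse 4 and 3 were highest there. Adipoq, Lep, Retn and Plin1 were not above background in all 4 livers. The founder strain genes were low in mouse 1 (0.866; 4.57, 4.81, 4.78 and 4.81), and 5 of the 7 genes were lowest there, as 32.4% of all genes were. Klrd1 and Gpnmb of that list were not above background in all 4 livers.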

How the results depend on the processing

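The number of genes with an SD of at least 1 was 105 as reported, 58 with normexp background correction, and 102 to 145 under the other scalings, probe summaries and filters. It ran from 75 to 165 when a mouse was left out, the highest without mouse 2 and the lowest without mouse 4. The median SD was 0.19, rose to 0.35 with spike-in scaling, and ran from 0.16 to 0.20 when a mouse was left out. Spike-in scaling moved the median of all genes by -0.32, -0.19, 0.26 and 0.24 in mice 1 to 4, and median scaling by -0.13 to 0.12. Of the 30 genes of largest SD, 16 to 26 stayed when a mouse was left out, the fewest without mouse 4 and 18 without mouse 1, and of the 30 brightest, 28 to 29 stayed. Under the other settings 23 to 29 and 22 to 30 stayed. The share with mouse 4 apart ran from 38.6% (14.3% of all genes) with spike-in scaling to 56.9% (27.2%) with normexp. With 3 mice the split always leaves 1 apart, so that without each of the other mice it ran from 53.3% to 61.1%, beside 37.3% to 41.9% of all genes. The genes above background numbered 13823 to 13944 when a mouse was left out, since fewer arrays had to pass. Among 2117 genes in the authors' deposited table, the median SD was 0.20 there and 0.19 here. Except for leaving out a mouse, SDs of the 135 named genes moved most often with quantile normalization, which brings the brightest genes of all arrays to the same values, and with spike-in scaling (33 each). The cause of the other moves was not tested. Dim genes carry the largest error, and normexp with its offset compresses them. No paired analysis was possible because the 4 mice form 1 group and no groups were compared.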

Other observations

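Some genes were well above background in only 1 to 3 of the 4 livers. Rnf144a, a ubiquitin ligase, read 0.52, 0.19 and -0.47 in mice 1, 2 and 4 and was not well above background in mouse 3. Rhox5, a homeobox gene of the X chromosome, read -1.84, 0.47 and -2.25 in mice 1 to 3 and was not well above background in mouse 4. Slc22a12, a urate transporter, was highest in mouse 3 at -0.69 and was not well above background in mice 1 and 2. Gm15628 read -0.80 in mouse 4 and was above background in that mouse alone. It has 1 probe and did not meet the rule for a patch. Ifngas1 and Olfr771, which lie in patches, were also above background in mouse 4 alone. Whether the reading of Gm15628 is that of its RNA was not tested. Fam13c and Kcnk10 were missed in mouse 3 only. Gm31135, Col25a1, Ifngas1 and Olfr771 lie in the bright patches. Another 60 features with an SD of at least 1 have no gene name in the table used, against 9073 unnamed features in all.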
